A study of Homo sapiens with 5 samples.

Results

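A set of 9 genes that pathologists and developmental biologists use to place an ovarian clear cell carcinoma in the Mullerian lineage were followed through acquired resistance to an EZH2 inhibitor: PAX8, WT1, LHX1, EMX2, SOX17, ESR1, PGR, NAPSA and MUC16. They were chosen by name, and their rows were found by Ensembl gene identifier. The identifiers of 7 of the 9 matched a row among the 30476 genes of the count table, and PGR and LHX1 were not analysed here. The question was whether resistant clones keep the lineage markers of the tumor type. RNA-seq was performed on TOV21G, an established ovarian clear cell carcinoma cell line with mutated ARID1A, a subunit gene of the SWI/SNF chromatin remodeling complex. One library came from parental, control-treated cells. The EZH2 inhibitor-resistant (EIR) cells descended from the same line through stepwise culture in 5, 10, 15 and 20 uM GSK126, an inhibitor of the histone methyltransferase EZH2, after which single clones were picked. EIR clones 3 and 4 were each sequenced once untreated and once treated with GSK126, which gives 4 EIR libraries. The dose and length of that treatment are not in the labels. All 5 libraries therefore carry the mutated ARID1A background, each clone stands for 1 picked line, and the EIR libraries without drug still have the selection behind them.

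The Mullerian ducts of the embryo give rise to the oviduct, uterus and upper vagina, and clear cell carcinoma of the ovary is thought to arise largely from endometriosis, a tissue of that lineage. PAX8, LHX1 and EMX2 are transcription factors needed to form the ducts, and WT1 acts in the coelomic and urogenital tissue beside them. SOX17 marks Mullerian epithelium, and ESR1 and PGR encode the estrogen and progesterone receptors. NAPSA encodes napsin A, an aspartic protease of lung, kidney and clear cell carcinoma, and MUC16 encodes the mucin that carries the CA125 antigen. In diagnostic use, clear cell carcinoma is typically PAX8 and napsin A positive and WT1, estrogen receptor and progesterone receptor negative, whereas WT1 is usual in serous carcinoma. EZH2 places the repressive mark H3K27me3, which in many cell types lies over developmental genes and over promoters rich in CpG dinucleotides.

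PAX8 was the identity gene with by far the most reads in all 5 libraries, and no call of a difference was made for it in any of the 5 comparisons. WT1 and NAPSA were both higher in clone 3 than in parental cells. In clone 4 WT1 was nearly without reads. NAPSA had 6 and 4 counts in clone 4 against 2 in parental cells, a difference that was not called. MUC16 was low, and EMX2, SOX17 and ESR1 had at most 1 count in any library. Of the 7 genes with a row, 4 had more than 3 counts in some library and 2, PAX8 and MUC16, had more than 3 in every library. Total counts were between 25479238 and 30764963 per library, so that 3 counts, the floor used here for a count of 0, stood for 0.0975 to 0.118 CPM (counts scaled to the library total). That many or fewer counts in all libraries were found for 27.6% of the rows of the table.

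**Figure D1:**
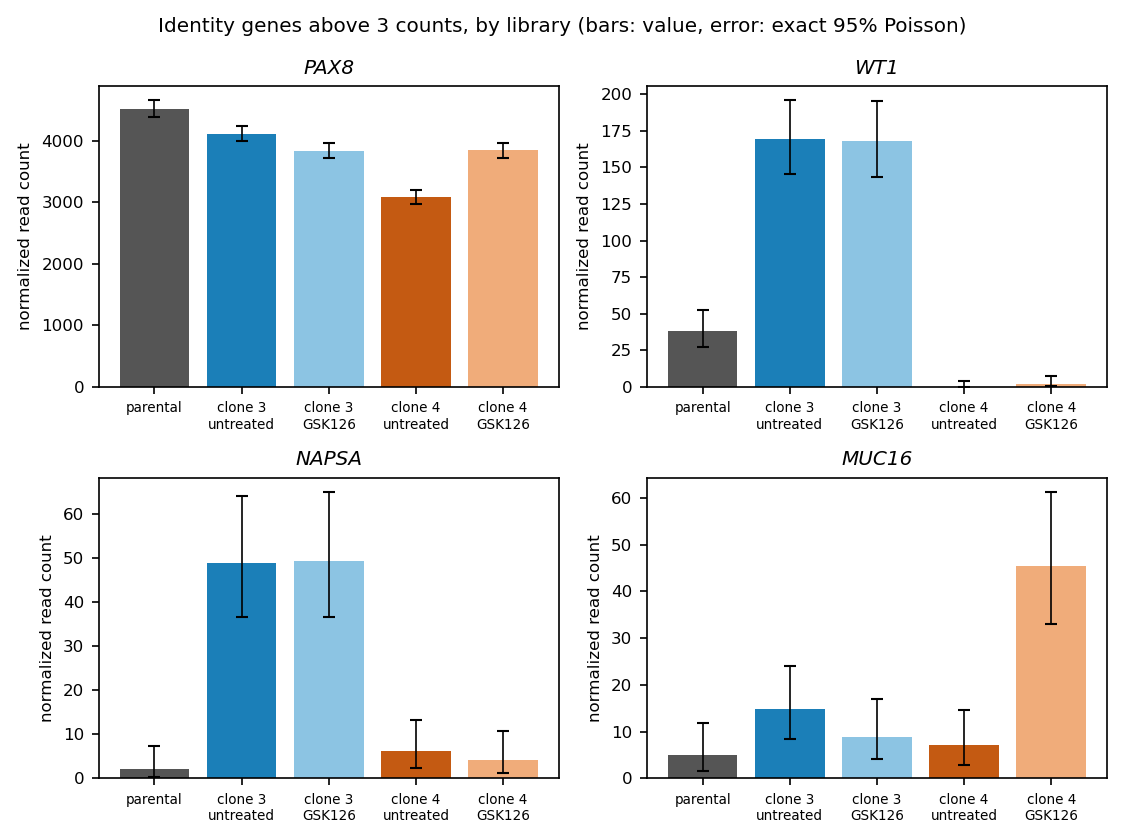
Normalized read count (counts divided by the size factor of the library, vertical axes from 0) of PAX8, WT1, NAPSA and MUC16 in each of the 5 libraries, one bar per library, with exact 95% Poisson intervals that cover counting error only. PAX8 lay between 3083 and 4523 throughout, WT1 and NAPSA were highest in both clone 3 libraries, and MUC16 was highest in GSK126-treated clone 4 at 45.5.

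Levels of different genes were compared per kilobase of exon. PAX8 had a mean of 526 normalized counts per kb over the 5 libraries, WT1 had 9.29, NAPSA 6.18 and MUC16 0.368. The 3 genes near 0 followed, with SOX17 at 0.0789, EMX2 at 0.0568 and ESR1 at 0.0292 per kb, each resting on 1 or 2 counts in all, so their order has no meaning. The order of WT1, NAPSA and MUC16 was not the same in all cells. On this per-kb scale, parental cells had WT1 at 4.71 and NAPSA at 0.562, clone 3 had 20.7 and 13.7, and clone 4 had NAPSA at 1.44, MUC16 at 0.596 and WT1 at 0.130. WT1 thus stood above NAPSA in parental cells and clone 3 and below it in clone 4. Their means over the 5 libraries mix these groups, and no test compared the 2 genes. PAX8 stood above every other identity gene in each library.

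**Figure D2:**
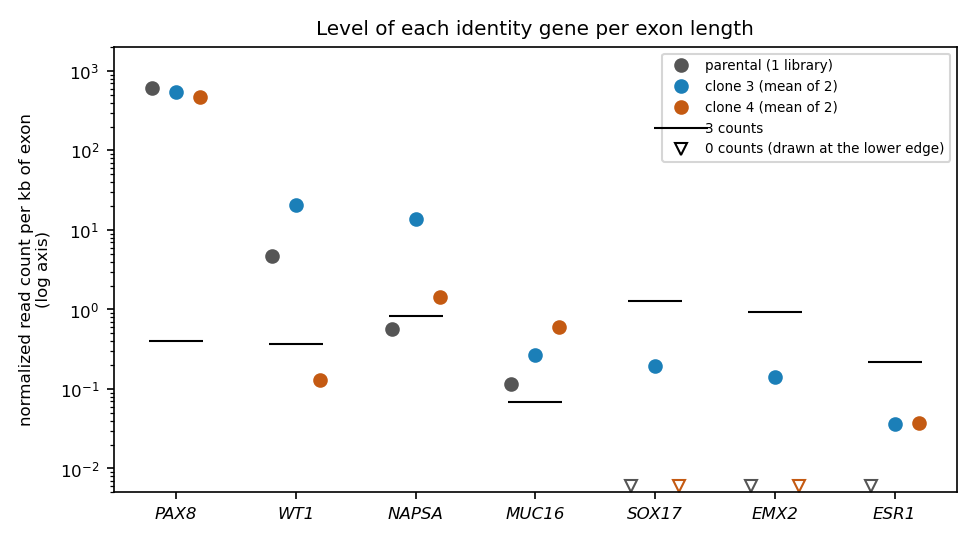
Normalized read count per kb of exon (log axis) of the 7 identity genes with a row, in parental cells (1 library) and as the mean of the 2 libraries of each clone. Horizontal marks give the level of 3 counts, and open triangles stand for 0 counts; PAX8 lies at 470 to 614 in all groups, while SOX17, EMX2 and ESR1 lie below the mark.

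PAX8 (ENSG00000125618, GRCh37 chr2:113973574-114036498, minus strand) is a paired box transcription factor and the most used nuclear marker of Mullerian epithelium. Its normalized read count was 4523 in parental cells, 4116 and 3834 in clone 3 without and with GSK126, and 3083 and 3845 in clone 4 without and with GSK126. All 4 EIR libraries, at 3720 ± 444 (SD, n = 4), lay below the single parental library, and the untreated clone 4 library was the lowest. The difference between EIR and parental cells was -0.28 on the log2 scale (SE 0.22, 95% interval -0.72 to 0.16, DESeq2 adjusted p = 0.387). After a correction for gene GC content the difference was 0.055, so its direction depended on that choice. Clone 3 differed from parental by -0.19 (DESeq2 adjusted p = 0.527) and clone 4 by -0.39 (DESeq2 adjusted p = 0.106), and the same GC correction took these to 0.12 and -0.014 (DESeq2 adjusted p = 0.966 in clone 4). Without the treated clone 4 library, the clone 4 difference became -0.55 with a DESeq2 adjusted p of 0.00724, so that 1 library decided whether PAX8 was called lower in clone 4.

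A fall of PAX8 in EIR cells by up to 0.72 on the log2 scale lies within the interval. A pair of annotated antisense genes overlap PAX8 on the other strand, and whether counting used the strand is not stated. PAX8-AS1 had 22 to 41 counts and RP11-65I12.1 had 5 to 15 counts per library, against 3031 to 4491 for PAX8.

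WT1 (ENSG00000184937, GRCh37 chr11:32409321-32457110, minus strand) encodes a zinc finger transcription factor of gonad, kidney and mesothelium. Its normalized read count was 38.3 in parental cells, 169 and 168 in clone 3 without and with GSK126, 0 in untreated clone 4 and 2.12 in treated clone 4. The libraries of the 2 clones lay on opposite sides of the parental library and did not overlap. WT1 rose in clone 3 by 2.14 on the log2 scale against parental (SE 0.62, DESeq2 adjusted p = 0.0031, edgeR quasi-likelihood adjusted p = 0.0107), which is a ratio of 4.41 with an exact 95% counting interval of 3.15 to 6.33. In clone 4 it fell by 5.20 (SE 1.19, DESeq2 adjusted p = 1.03e-04, edgeR quasi-likelihood adjusted p = 0.00213). The 2 counts left in clone 4 give a parental to clone 4 ratio of 36.9, with a counting interval of 9.54 to 316. The fitted clone 4 value was -7.67 without the treated clone 4 library and -4.18 without the untreated one, and WT1 was called lower either way. The call in clone 3 was lost when either clone 3 library was left out, with DESeq2 adjusted p-values of 0.193 without the untreated and 0.208 without the treated library, while the log2 difference stayed at 2.14 and 2.15.

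Averaged over all 4 EIR libraries, WT1 had 84.9 ± 96.8 normalized counts (SD, n = 4) and no call was made (log2 difference 1.15, SE 3.41, DESeq2 adjusted p = 0.845). The mean over EIR cells thus described neither clone. The antisense gene WT1-AS, which overlaps the 5' end of WT1, had 16 counts in parental cells, 23 and 15 in clone 3 and 3 and 1 in clone 4. It was low in clone 4 as WT1 was, and its part in the WT1 counts was not tested.

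NAPSA (ENSG00000131400, GRCh37 chr19:50861729-50869087, minus strand) is the clear cell marker of the set. Its normalized read count was 2.01 in parental cells, 49.1 and 49.4 in clone 3 without and with GSK126, and 6.10 and 4.23 in clone 4 without and with GSK126. Both clone 3 libraries lay well above all others, and the clone 4 libraries lay within a few counts of the parental one. NAPSA rose in clone 3 by 4.61 on the log2 scale (SE 1.42, DESeq2 adjusted p = 0.00587, edgeR quasi-likelihood adjusted p = 0.00367), a ratio of 24.4 that rests on 2 parental counts and has a counting interval of 6.60 to 205. In clone 4 the log2 difference was 1.36 (DESeq2 adjusted p = 0.53), with a counting interval of the ratio of 0.549 to 24.2. The clone 3 call was lost without its untreated library (DESeq2 adjusted p = 0.113) and without its treated library (DESeq2 adjusted p = 0.13). Over all EIR libraries the log2 difference was 3.76 (SE 1.80, unadjusted p = 0.0365, DESeq2 adjusted p = 0.111). NR1H2, a nuclear receptor gene that spans NAPSA on the opposite strand, had 889 to 968 counts in the 5 libraries and was not higher in clone 3.

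The regions upstream of WT1 and NAPSA are shown because these were the identity genes that were high together in clone 3. Each is the 250 bases before the annotated start, read 5' to 3' on the strand of the gene from the RefSeq promoter table (GRCh38.p14). The WT1 window is chr11:32435540-32435789 and the NAPSA window chr19:50365640-50365889, both on the minus strand, and capitals mark CpG dinucleotides.
WT1: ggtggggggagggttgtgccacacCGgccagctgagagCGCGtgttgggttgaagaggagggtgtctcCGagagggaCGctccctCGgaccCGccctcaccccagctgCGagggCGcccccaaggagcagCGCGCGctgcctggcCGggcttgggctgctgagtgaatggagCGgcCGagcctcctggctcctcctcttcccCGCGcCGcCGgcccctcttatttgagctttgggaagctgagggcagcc
NAPSA: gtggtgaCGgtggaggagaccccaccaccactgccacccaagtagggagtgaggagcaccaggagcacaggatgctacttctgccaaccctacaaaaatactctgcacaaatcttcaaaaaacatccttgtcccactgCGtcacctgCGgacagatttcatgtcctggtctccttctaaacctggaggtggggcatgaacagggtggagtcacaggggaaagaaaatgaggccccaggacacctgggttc
The WT1 window had 19 CpG dinucleotides, 70.4% GC and a CpG observed over expected ratio of 0.616, higher than in 53.5% of the 35116 windows of that length. The NAPSA window had 3 CpG dinucleotides, 54.4% GC and a ratio of 0.162, higher than in 18.3% of them. Both strands were searched for 2 short motifs. The GC box letters GGGCGG occurred once upstream of WT1 and are held by 42.6% of all windows, whereas the letters TATAAA (10.7% of windows) were in neither window. The 2 genes that were high together thus had upstream sequence of unlike CpG content.

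MUC16 (ENSG00000181143, GRCh37 chr19:8959520-9121066, minus strand) encodes a very large membrane mucin. Its normalized read count was 5.04 in parental cells, 14.8 and 8.89 in clone 3 without and with GSK126, and 7.12 and 45.5 in clone 4 without and with GSK126. All EIR libraries lay above the parental library, and the treated clone 4 library stood apart from the other three. The EIR difference of 1.92 on the log2 scale was not called (SE 1.42, 95% interval -0.86 to 4.69, DESeq2 adjusted p = 0.343). Treated clone 4 had 43 counts against 7 in untreated clone 4, a ratio of 6.39 with a counting interval of 2.85 to 16.8, while in clone 3 the same ratio was 0.600 (0.234 to 1.44). These 2 ratios compare single libraries and carry no replicate error.

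EMX2 (ENSG00000170370, chr10:119301956-119309057), SOX17 (ENSG00000164736, chr8:55370495-55373452) and ESR1 (ENSG00000091831, chr6:151977826-152450754), all on the plus strand of GRCh37, were not detectable above 3 counts in parental or EIR cells. EMX2 and SOX17 each had 1 count in untreated clone 3 and 0 in the other 4 libraries. ESR1 had 1 count in treated clone 3, 1 in untreated clone 4 and 0 in the other 3. No fold change is given for them. Neighbors overlap some of these loci on the opposite strand. EMX2OS had 0 to 3 counts, and SYNE1, which reaches the ESR1 locus, had 2747 to 7504 counts without any rise of the ESR1 count.

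Read against all genes, none of the 4 identity genes with an adjusted p was called between EIR and parental cells by DESeq2, and 1, NAPSA, had an unadjusted p under 0.05. In that comparison 25.5% of all tested genes were called. edgeR called 0 of the 4 and 11.1% of all genes, with 0 of the 4 under an unadjusted p of 0.05. Against parental, 2 of 4 were called in clone 3 by either tool, where DESeq2 called 29.2% and edgeR 32.7% of all genes. In clone 4 it was 1 of 4 by either tool, where DESeq2 called 32.9% and edgeR 35.3% of all genes. These shares of the identity genes rest on 4 genes and were not set apart from the background. These comparisons share the parental library, whose own variation could not be measured, and the 2 libraries of a clone are treated as its replicates although both come from 1 line. Their p-values measure the spread between these libraries only.

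The direct comparison of the clones does not use the parental library. Between clone 4 and clone 3, with treatment as a covariate, 2 of 4 identity genes were called, both lower in clone 4, where 9.81% of all genes were called in either direction and 6.52% lower (edgeR 14.9% in either direction). WT1 fell by 7.38 on the log2 scale (SE 1.16, DESeq2 adjusted p = 1.10e-08, edgeR quasi-likelihood adjusted p = 5.18e-04), and its clone 3 to clone 4 ratio was 163 with a counting interval of 44.7 to 1349. NAPSA fell by 3.27 (SE 0.96, DESeq2 adjusted p = 0.00954, edgeR quasi-likelihood adjusted p = 0.00662), with a ratio of 9.49 (4.96 to 20.4). PAX8 differed by -0.21 (95% interval -0.57 to 0.15, DESeq2 adjusted p = 0.671) and MUC16 by 0.68 (-1.56 to 2.93, DESeq2 adjusted p = 0.892). All fits between the clones with a library left out, here and below, also had no treatment covariate. Leaving out either clone 3 library, which leaves 1 library in that arm and takes its spread from clone 4, ended both calls. The DESeq2 adjusted p-values were then 0.0623 and 0.0656 for WT1 and 0.191 and 0.175 for NAPSA, and the log2 differences -7.34 and -7.37 for WT1 and -3.27 in both cases for NAPSA.

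**Figure D3:**
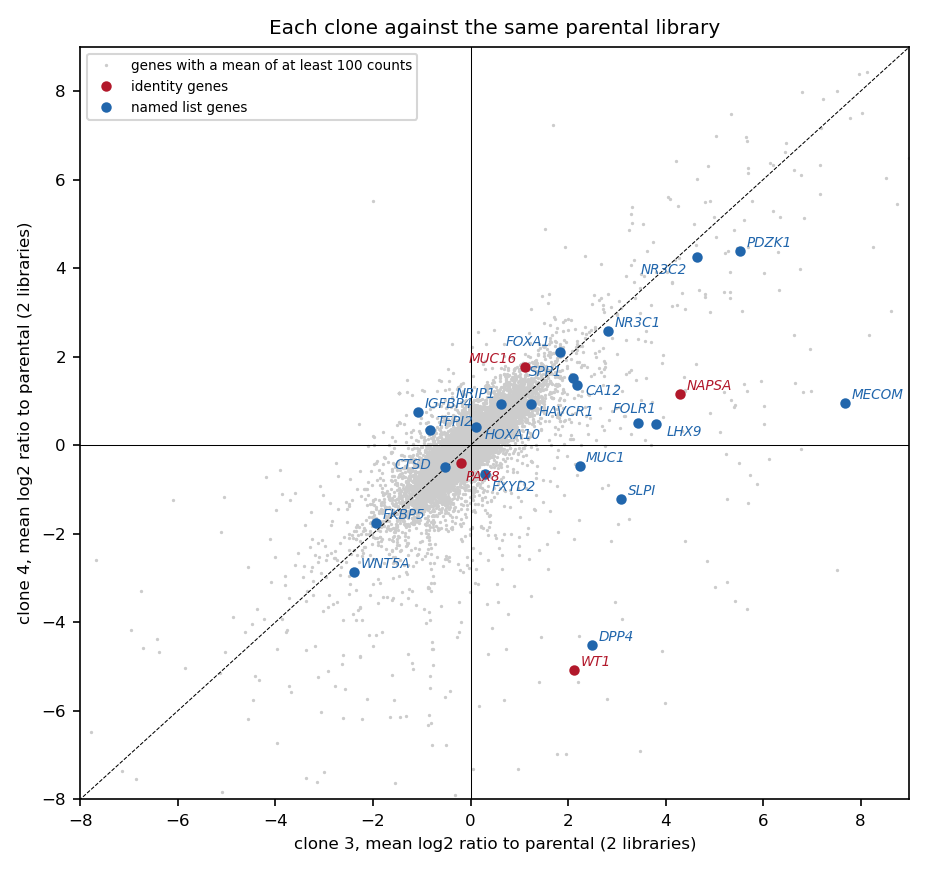
Mean log2 ratio to the parental library (pseudocount 0.5) in clone 3 (horizontal axis) and clone 4 (vertical axis), each over 2 libraries, for 11564 genes that averaged 100 or more normalized counts (gray), 4 identity genes (red) and the named genes of related lists (blue). Both axes share the same parental library; WT1 lies at 2.13 and -5.08 and NAPSA at 4.31 and 1.15, below the dashed line of equal ratios, while PAX8 lies near the origin.

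No identity gene was called for GSK126 treatment. In the 4 EIR libraries, DESeq2 called 0 of 7 identity genes between treated and untreated cells, with 0 at an unadjusted p under 0.05. edgeR called 0 of the 4 that passed its filter, again with 0 unadjusted. Among the 7, EMX2, SOX17 and ESR1 had too few counts to be called. The DESeq2 fit had no clone term, so the difference between the clones widened its errors (SE 3.75 for WT1 and 1.44 for NAPSA). Of all genes, 0.00335% were called. The treated minus untreated log2 difference was 0.08 for PAX8 (95% interval -0.40 to 0.56) and 1.29 for MUC16 (-1.08 to 3.66). With the clone as a block, DESeq2 again called 0 of 7 and 0.0134% of all genes. The 95% intervals were then -0.26 to 0.45 for PAX8, -1.13 to 1.75 for WT1, -2.05 to 1.62 for NAPSA and -1.28 to 3.21 for MUC16. Changes within these intervals were not excluded. Within clone 3 the treated to untreated ratio was 0.992 for WT1 (counting interval 0.800 to 1.23) and 1.01 for NAPSA (0.670 to 1.51).

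Other markers of clear cell carcinoma were called at about the rate of all genes between EIR and parental cells, and some were lower than parental in 1 clone. Of 11 listed genes, 10 had a row and 8 an adjusted p; 2 of the 8 were called higher in EIR cells and none lower, where 25.5% of all genes were called, and the median log2 difference was 0.02 against 0.00 over all genes. Against parental, 3 of 8 were called higher and 1 lower in clone 3, and 2 higher and 2 lower in clone 4 (edgeR 2 lower in clone 3 and 3 in clone 4), where 29.2% and 32.9% of all genes were called. SPP1, which encodes the secreted phosphoprotein osteopontin, was the listed gene with the most counts. It had 8009 normalized counts in parental cells, 29962 and 39424 in clone 3 and 24454 and 21277 in clone 4, each pair untreated first, and rose by 1.85 (SE 0.36, DESeq2 adjusted p = 8.02e-06). HAVCR1, the kidney injury molecule KIM-1, had 3397 in parental cells, 7698 and 8264 in clone 3 and 6912 and 6143 in clone 4, and rose by 1.09 (SE 0.23, DESeq2 adjusted p = 3.18e-05). In both genes every EIR library lay above parental. With the treated EIR libraries alone, HAVCR1 was not called (DESeq2 adjusted p = 0.06). ANXA4, an annexin, had 7588 normalized counts in the parental library against 5418 to 7019 in EIR libraries. AMACR, a racemase of branched-chain fatty acids, had 927 against 966 to 1101, and neither was called. GPX3, a secreted glutathione peroxidase, had 19 counts in parental cells and 0 in each EIR library, but DESeq2 gave it no adjusted p. The edgeR adjusted p was 0.0899 over EIR cells, 0.0238 in clone 3 and 0.0239 in clone 4, so edgeR called it lower in each clone but not over both. The last 3 genes were singled out after their values were seen.

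Between the clones, 1 of 8 tested genes of the clear cell list was called higher and 3 lower in clone 4 than in clone 3 (edgeR 1 and 2), where 9.81% of all genes were called and 6.52% were lower. The median was -0.14 against 0.00 over all genes. DPP4, the membrane peptidase CD26, had the pattern of WT1. Its normalized count was 45.3 in parental cells, 241 and 278 in clone 3 and 1.02 and 2.12 in clone 4, and it fell by 7.39 between the clones (SE 0.94, DESeq2 adjusted p = 2.65e-13). Against parental it rose by 2.52 in clone 3 (DESeq2 adjusted p = 1.72e-05) and fell by 4.86 in clone 4 (DESeq2 adjusted p = 8.14e-06). FXYD2, a regulator of the sodium pump, had 4571 in parental cells, 5579 and 5663 in clone 3 and 2818 and 2960 in clone 4, and fell by 0.97 (SE 0.17, DESeq2 adjusted p = 3.00e-07). It was also lower in clone 4 than in parental cells, by -0.66 (DESeq2 adjusted p = 4.07e-04). TFPI2, a Kunitz-type protease inhibitor used as a serum marker of clear cell carcinoma, went the other way. It had 13803 in parental cells, 8817 and 6911 in clone 3 and 18218 and 16717 in clone 4, and was higher in clone 4 by 1.15 (SE 0.16, DESeq2 adjusted p = 8.80e-11). Against parental it was lower in clone 3, by -0.81 (DESeq2 adjusted p = 9.02e-05). SPP1 was lower in clone 4 by 0.60 (DESeq2 adjusted p = 0.0136), a call that edgeR did not make (adjusted p = 0.0896) and that was lost without treated clone 3 (DESeq2 adjusted p = 0.52) and without untreated clone 4 (DESeq2 adjusted p = 0.117).

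Of 14 further genes of Mullerian duct development, 10 had a row and 6 an adjusted p; none was called higher in EIR cells and 1 was called lower, with a median of -0.21, where 25.5% of all genes were called. Against parental, 1 of 6 was called higher (LHX9) and 2 lower in clone 3, and 1 lower in clone 4. The second lower gene in clone 3, named after its values were seen, was the homeobox gene HOXA11, with 818 normalized counts in parental cells and 500 and 453 in clone 3 (log2 difference -0.78, DESeq2 adjusted p = 0.0162). The gene lower in EIR cells was WNT5A, a secreted Wnt ligand of duct mesenchyme. It had 3354 normalized counts in parental cells, 704 and 589 in clone 3 and 429 and 485 in clone 4, and fell by 2.60 (SE 0.33, DESeq2 adjusted p = 1.59e-13), with every EIR library below parental. HOXA10, a homeobox gene that patterns the uterus and has the most counts of the list, had 4343 in parental cells, 5083 and 4362 in clone 3 and 6192 and 5405 in clone 4, and was not called (log2 difference 0.28, DESeq2 adjusted p = 0.445). PAX2, the close relative of PAX8, had 193 in the parental library against 69.2 to 133 in EIR libraries (log2 difference -0.96, SE 0.48, DESeq2 adjusted p = 0.127); it was singled out for its kinship to PAX8. Between the clones 1 of 7 tested genes was called. LHX9, a LIM homeobox factor of the gonad and a relative of LHX1, had 5.04 in parental cells, 67.6 and 88.0 in clone 3 and 7.12 and 7.41 in clone 4, and fell by 3.42 (SE 0.78, DESeq2 adjusted p = 3.12e-04). Against parental it rose by 3.95 in clone 3 (DESeq2 adjusted p = 8.02e-04). Without treated clone 3 the call between the clones was lost (DESeq2 adjusted p = 0.071).

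Serous carcinoma markers, the class in which WT1 is used, had most of their reads in clone 3. Their summed normalized count was 41.3 in parental cells, 885 to 1183 in clone 3 and 39.7 to 81.5 in clone 4. Of 9 listed genes, 8 had a row, and 2 of these had 3 or fewer counts in every library. Of the 4 genes with an adjusted p between EIR and parental cells none was called in either direction, where 25.5% of all genes were called. The median log2 difference was 2.54. Against parental, 3 of 4 were called higher and 0 lower in clone 3, where 29.2% of all genes were called. In clone 4 none of 4 was called against parental, where 32.9% of all genes were. Between the clones 3 of 4 were called lower in clone 4 (edgeR 4), where 6.52% of all genes were, and the median was -3.61. MECOM, a zinc finger factor amplified in serous carcinoma, made up most of the sum in clone 3. It had 3.02 normalized counts in parental cells, 622 and 851 in clone 3 and 4.07 and 9.52 in clone 4, and fell between the clones by 6.80 (SE 0.50, DESeq2 adjusted p = 1.50e-39). FOLR1, the folate receptor, had 16.1 in parental cells, 158 and 203 in clone 3 and 18.3 and 28.6 in clone 4, and fell by 2.97 (SE 0.51, DESeq2 adjusted p = 1.93e-07). SLPI, a leukocyte protease inhibitor of mucosal fluids, had 23.1 and 37.6 in clone 3 and 4.07 and 0 in clone 4, with 3.02 in the parental library, and was called lower by 4.26 (DESeq2 adjusted p = 0.0352). Leaving out untreated clone 3, treated clone 3 or treated clone 4 ended the SLPI call (DESeq2 adjusted p = 0.235, 0.617 and 0.112).

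ESR1 and PGR belong to the steroid receptors, of which the relatives NR3C1 and NR3C2 rose in EIR cells while ESR1 stayed at or below 1 count. Of 16 relatives of the identity genes, 15 had a row and 8 an adjusted p, with 3 called higher, 1 lower and a median of 1.58 (edgeR 3 higher and none lower), where 25.5% of all genes were called. NR3C1, the glucocorticoid receptor, had 296 in parental cells, 2104 and 2103 in clone 3 and 1736 and 1793 in clone 4. It rose by 2.71 (SE 0.22, DESeq2 adjusted p = 1.59e-30). NR3C2, the mineralocorticoid receptor, had 3.02 in parental cells, 66.7 and 114 in clone 3 and 39.7 and 111 in clone 4, and rose by 4.78 (SE 1.09, DESeq2 adjusted p = 1.54e-04). In both receptors every EIR library lay above parental, in both clones, and each alternative that gave a value kept the call. CTSD, the lysosomal aspartic protease cathepsin D and a relative of napsin A, was called lower by 0.51 (DESeq2 adjusted p = 0.0461), which edgeR did not call (adjusted p = 0.0903) and which a GC correction took to -0.02. MUC1, an epithelial mucin, had 11.1 in parental cells, 41.7 and 70.2 in clone 3 and 3.05 and 19.0 in clone 4. It was called lower in clone 4 than in clone 3 by 2.69 (DESeq2 adjusted p = 0.0278), but not without untreated clone 3 (DESeq2 adjusted p = 0.274), treated clone 3 (0.773) or untreated clone 4 (0.208).

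Genes that respond to steroid hormones had 4 of 9 called higher and 2 lower between EIR and parental cells, with a median of 0.79, where 2014 of 16288 genes were called higher and 2143 lower. edgeR called 2 of 10 higher and 2 lower. PDZK1, a scaffold protein induced by estrogen in other tissues, had 24.2 normalized counts in parental cells, 1005 and 1298 in clone 3 and 547 and 486 in clone 4, and rose by 5.11 (SE 0.64, DESeq2 adjusted p = 1.73e-13). FOXA1, the forkhead factor that opens chromatin for steroid receptors, had 72.5 in the parental library against 224 to 336 in EIR libraries and rose by 1.99 (SE 0.36, DESeq2 adjusted p = 1.10e-06). CA12, a membrane carbonic anhydrase, had 252 in the parental library against 472 to 1448 in EIR libraries and was called higher by 1.89 (DESeq2 adjusted p = 0.00447; edgeR adjusted p = 0.108). FKBP5, a chaperone induced by glucocorticoids, had 763 in the parental library against 158 to 317 in EIR libraries. It fell by 1.80 (SE 0.43, DESeq2 adjusted p = 3.60e-04). The other lower gene, XBP1, named after its values were seen, had 4172 in the parental library against 1676 to 2477 in EIR libraries. Its log2 difference was -0.95 (SE 0.27, DESeq2 adjusted p = 0.0029, edgeR adjusted p = 0.0468). NRIP1, a nuclear receptor corepressor and the listed gene with the most counts, had 5375 in the parental library against 8126 to 10620 in EIR libraries and was called higher by 0.79 (DESeq2 adjusted p = 0.00298; edgeR adjusted p = 0.0646).

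Between the clones, PDZK1 was lower in clone 4 by 1.15 (SE 0.23, DESeq2 adjusted p = 2.68e-05). CA12 was called lower there by 0.82 (DESeq2 adjusted p = 0.00297). IGFBP4, an insulin-like growth factor binding protein, was called higher there by 1.83 (DESeq2 adjusted p = 2.17e-05). The calls of CA12 and IGFBP4 were lost without the treatment covariate (DESeq2 adjusted p = 0.459 and 0.286) and also, in fits without it, when any 1 EIR library was left out. IGFBP4 had 42.6 and 126 in clone 3 and 135 and 498 in clone 4, so treated libraries were the higher in each clone.

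**Figure D4:**
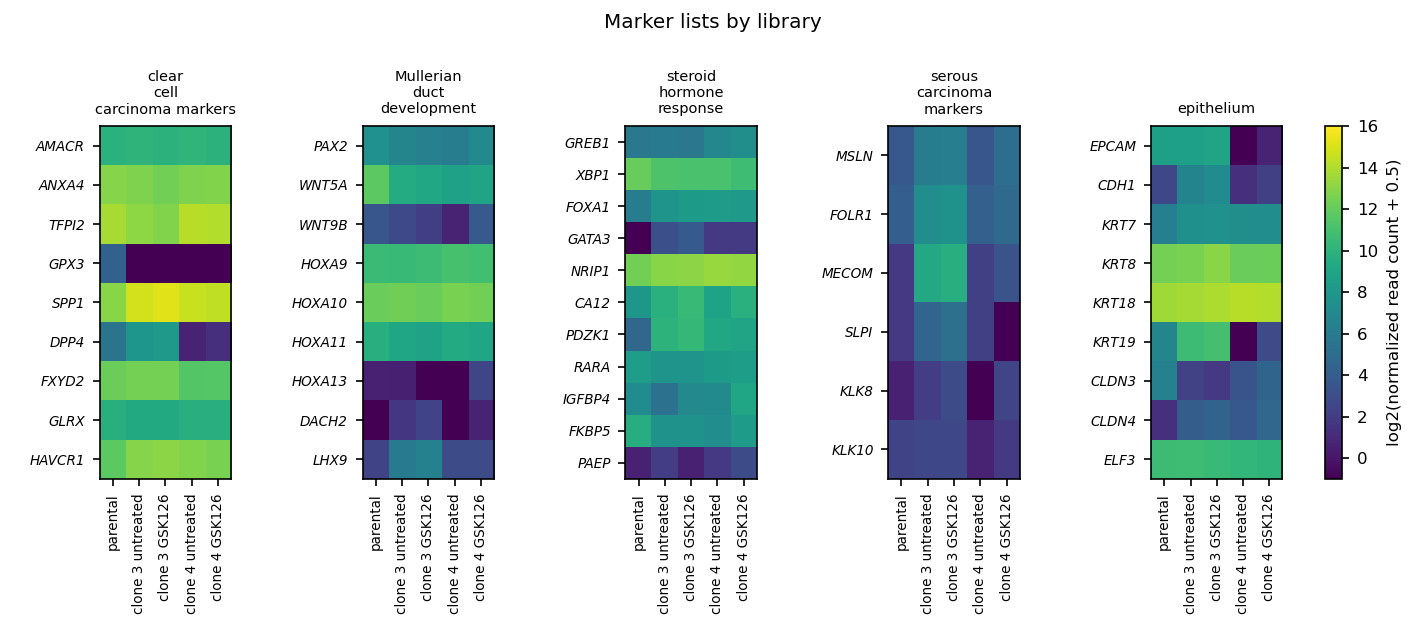
Log2 of the normalized read count plus 0.5 (color scale) in the 5 libraries (columns) for the genes of 5 marker lists with more than 3 counts in some library (rows). MECOM, DPP4, EPCAM, CDH1 and KRT19 are bright in both clone 3 columns and dark in both clone 4 columns, while SPP1, KRT18 and HOXA10 are bright in all 5.

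Epithelial markers, which a carcinoma line should carry, were present in the line but unequal between clones. All 9 listed genes had a row and an adjusted p. In EIR cells 1 was called higher, KRT7, and 1 lower, CLDN3 (edgeR none in either direction), where 25.5% of all genes were called. Against parental, 2 of 9 were called higher and 1 lower in clone 3, and 1 higher and 4 lower in clone 4. The shares of all genes called there were 29.2% and 32.9%. Between the clones none was called higher and 4 lower in clone 4 (edgeR 5), with a median of -0.47, where 6.52% of all genes were called lower. KRT8 and KRT18, the keratins of simple epithelium, had at least 4419 and 11981 normalized counts in every library. EPCAM, an epithelial adhesion molecule, had 401 in parental cells, 394 and 492 in clone 3 and 0 and 1.06 in clone 4. CDH1, which encodes E-cadherin, had 6 raw counts in parental cells, 108 and 148 in clone 3 and 2 and 4 in clone 4. KRT19 had 113 in parental cells, 1632 and 1998 in clone 3 and 0 and 7.41 in clone 4. Other listed genes had other patterns. KRT7 had 81.6 in parental cells, 184 and 194 in clone 3 and 166 and 159 in clone 4. CLDN3 had 89.6 in parental cells, 4.63 and 2.96 in clone 3 and 10.2 and 22.2 in clone 4. KRT18 was called higher in clone 4 than in parental cells (log2 difference 0.57, DESeq2 adjusted p = 0.0027). These genes were singled out after their values were seen. In bulk samples, fewer cells with a gene and less RNA per cell cannot be told apart.

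WT1 is also a marker of mesothelium and of ovarian sex cord cells, so the other markers of those cells are given beside it. Of 5 mesothelial markers 2 had 3 or fewer counts in every library, CALB2 among them, and their summed normalized count was 11.1 in parental cells, 356 to 452 in clone 3 and 27.5 to 46.6 in clone 4. LRRN4 made up most of that in clone 3, with 7.05 in parental cells, 340 and 439 in clone 3 and 12.2 and 24.3 in clone 4. Of 6 sex cord stroma markers 3, FOXL2, NR5A1 and STAR, had 3 or fewer counts in every library, and the sum was 65.5 in parental cells, 177 to 178 in clone 3 and 114 to 116 in clone 4. GATA4 in that list had 1.01 in parental cells, 136 and 127 in clone 3 and 0 in both clone 4 libraries. AMH in the same list went the other way and made up most of the sum in clone 4. It had 57.4 in parental cells, 37.0 and 45.5 in clone 3 and 113 and 105 in clone 4. In clone 3 both sums lay above parental, as WT1 did. In clone 4 both sums also lay above parental, whereas WT1 lay below it. The part of these markers in the WT1 result was not tested. NAPSA is a lung marker too, and there the summed count of the lung alveolar list stayed at or below 7.41 in every library, with 2 of its 3 measured genes at 3 or fewer counts throughout.

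The position of the identity genes was described by the expressed genes around them. Over 11564 genes that averaged 100 or more normalized counts, the median log2 ratio to parental was between -0.05 and -0.10 in the 4 EIR libraries. Within 1 Mb of the start of WT1, 11 such genes had a median of 0.14 in clone 3 and 0.21 in clone 4, so the genes around WT1 did not go apart between the clones as WT1 did. Within 1 Mb of NAPSA, 30 genes had a median of -0.31 in clone 3 and -0.45 in clone 4, and within 1 Mb of PAX8, 12 genes had medians of 0.37 and 0.06. The number of such genes around EMX2, SOX17 and ESR1 was 6 in each case, with medians over the EIR libraries of 0.87, 0.09 and 0.63.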

How the data were processed

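RNA-seq libraries of parental TOV21G cells (1) and EIR clones 3 and 4 (4) were analysed. The authors made libraries from Trizol-extracted RNA with a stranded total RNA kit, aligned paired-end reads to hg19 with bowtie2 and quantified them by RSEM, using an Ensembl annotation whose release is not given in the sources used here. The values the authors deposited are these expected counts, unnormalized and already whole numbers, so reads shared by overlapping or related genes were divided by estimation. Every gene of the table had at least 1 count in some library. Gene names and positions came from GENCODE release 44 on GRCh37, which matched 29203 of 30476 identifiers (95.8%); the unmatched 1273 held 3.06% of counts. Promoter sequences came from RefSeq (GRCh38.p14).

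DESeq2 1.42.0 (R 4.3.3), the tool of the study, was fitted on the whole table with median-of-ratios size factors and a two-sided Wald test, and genes with a Benjamini-Hochberg adjusted p under 0.05 were called. EIR libraries were compared with parental, each clone with parental, treated with untreated EIR libraries, and clone 4 with clone 3 with treatment as covariate. edgeR 4.0.16 (quasi-likelihood, TMM) was the other tool. Alternatives changed scaling, filters, GC correction, the libraries and the block. The scripts were tested on simulated data. With 1 parental library, spread came from EIR libraries alone. Treated and untreated libraries of the same clone pair by the labels, and the deviations of the pairs correlated at 0.862 over 11564 genes. Ratios of counts have exact 95% intervals for counting error only. Ratios to parental used a pseudocount of 0.5. The genes and lists were chosen with earlier results of these data known. List genes are named where called between EIR and parental cells or between the clones (at most 4 per list and comparison), or where they had the most counts of their list; 1 gene so chosen is not reported here.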

Additional observations from a re-analysis of the deposited data

Results flagged for a closer look

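Of 26 identity and list genes screened, 14 differed between the clones by the direct test (DESeq2, adjusted p under 0.05), where 9.81% of all genes did. The list genes among them are named because this comparison called them, so the count was fixed by the choice and is only a description. The clone 4 minus clone 3 log2 difference was -3.27 for NAPSA, -7.38 for WT1, -7.39 for DPP4, -6.80 for MECOM, -4.26 for SLPI, -3.42 for LHX9, -2.97 for FOLR1 and -2.69 for MUC1. It was -1.15 for PDZK1, -0.97 for FXYD2, -0.82 for CA12 and -0.60 for SPP1. TFPI2 at 1.15 and IGFBP4 at 1.83 were higher in clone 4.

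In 4 genes the treated to untreated ratio pointed opposite ways in the clones, and the difference was not tested, since each ratio rests on 1 library per arm. The ratio was 0.932 in clone 3 and 1.25 in clone 4 for PAX8, and 1.32 and 0.870 for SPP1. For HAVCR1 it was 1.07 and 0.889, and for NRIP1 it was 1.06 and 0.925.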

How the results depend on the processing

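The number of genes called between EIR and parental cells, 4157 by DESeq2, was 2024 with edgeR, 1914 with the libraries of a clone summed, 1554 with untreated and 1064 with treated EIR libraries alone. The PAX8 difference from parental turned to 0.055 in EIR cells and 0.12 in clone 3 under GC correction. Leaving out 1 EIR library gave 1983 to 5023 called genes in clone 3 (4925 with all), 3339 to 4623 in clone 4 (5368), 1 to 25 for GSK126 (1, and 0 with edgeR) and 831 to 2800 (875 without untreated clone 3) between the clones (1738); the last range, chosen after seeing the data, has no treatment covariate because no residual degree of freedom was left with it. Identity genes called then ranged from 0 to 2 in clone 3, 1 to 2 in clone 4 and 0 to 2 between the clones. A minimum of 10 counts in every library left 0 in each of these comparisons, since it keeps PAX8 alone.

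With the clone as replicate block, 4 genes were called for GSK126, none of them an identity gene, and the WT1 difference turned from -0.01 to 0.31 (edgeR 0.10), none called. Leaving out 1 EIR library, which unbalances the clones, the GSK126 difference ranged from -2.74 to 2.14 for NAPSA, -5.36 to 8.84 for WT1, -0.31 to 2.02 for MUC16 and -0.12 to 0.31 for PAX8. It turned direction without untreated clone 3 for NAPSA and WT1, without treated clone 4 for NAPSA (0.82), WT1 (0.97) and MUC16, and without untreated clone 4 for PAX8. MUC16 between the clones turned to -0.75 without treated clone 4.

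Per median transcript length, levels per kb were 1521 for PAX8, 42.6 for WT1, 24.7 for NAPSA, 3.99 for MUC16 and 0.326 for ESR1. Within 5 Mb the median ratio was -0.25 around NAPSA, 0.35 around EMX2, 0.35 around ESR1 and -0.39 around MUC16. Of the single-gene values under alternatives, 415 kept direction and call, 44 lost the call, 1 gained it and 11 turned direction. WT1 and NAPSA rest on few reads in parental cells and clone 4, and depth limits statements on EMX2, SOX17 and ESR1.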

Other observations

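In all, 41 genes had at least 100 counts in both clone 3 libraries and 3 or fewer in both clone 4 libraries, of 11427 with at least 100 in both clone 3 libraries, and 0 genes had the reverse pattern. WT1, DPP4, EPCAM and GATA4 were among them.

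Markers of further tissues were also summed. The germ cell and yolk sac list had 1739 normalized counts in parental cells, 287 to 339 in clone 3 and 488 to 540 in clone 4. In EIR cells 1 of its 4 tested genes was called higher and 1 lower, where 2014 of 16288 genes were called higher and 2143 lower. The lower gene, LIN28A, named after its values were seen, had 1460 in parental cells, 29.6 and 5.93 in clone 3 and 57.0 and 63.5 in clone 4, and made up most of the parental sum. The higher gene, AFP, had 0 in parental cells, 51.8 and 98.8 in clone 3 and 43.7 and 45.5 in clone 4. The renal tubule list had 93.7 in parental cells, 274 to 287 in clone 3 and 309 to 363 in clone 4. In EIR cells 2 of its 4 tested genes were called higher, where 2014 of 16288 genes were. The gastrointestinal list had 349 in parental cells, 462 to 523 in clone 3 and 484 to 844 in clone 4, with none of 2 called. Fibroblast markers summed to 115 in parental cells and 58.0 to 158 in EIR cells, endothelial markers to 9.06 and 14.8 to 21.2, and leukocyte markers to 46.3 and 87.8 to 169, with no gene of these lists called in EIR cells.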
